A study of Homo sapiens with 6 samples.

Results

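Tight junction transcripts were examined in the ARPE-19 line, derived from human retinal pigment epithelium, through 9 genes taken by symbol from the deposited tables: TJP1, TJP3, OCLN, CLDN1, CLDN11, CLDN12, MARVELD1, F11R and CGN. They are 9 of the 20461 listed entries that carry an Ensembl identifier, and each symbol matched exactly 1 of them. The cells had received either a control lentivirus or a lentivirus overexpressing PDZK1, a scaffold protein with PDZ domains, at a multiplicity of infection of 10. All cells, controls included, had been selected with 4 μg/ml puromycin and held in 37.5 mM glucose for 48 h. There were 3 libraries per group, called control replicates 1 to 3 and PDZK1 replicates 1 to 3. No label states that replicates came from separate cultures, while the study describes its data in general as coming from independent experiments, so p-values measure the spread between these samples, which may be technical. The comparison asked whether transcripts of the tight junction differed when PDZK1 was overexpressed in high glucose.

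The retinal pigment epithelium forms the outer blood-retinal barrier, and tight junctions seal the space between its cells. In a tight junction, claudins form the strands that close or selectively open the paracellular path. Occludin, some related MARVEL-domain proteins and the junctional adhesion molecules lie in the same membrane zone. Zonula occludens proteins, encoded by the TJP genes, and cingulin sit on the cytoplasmic side and tie these membrane proteins to actin. Zonula occludens proteins carry PDZ domains of their own.

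Library totals ran from 27970618 to 32804567 counts, and PDZK1 itself had 18 to 23 counts per control library against 2541 to 3020 with the PDZK1 lentivirus. Control replicate 3 stood apart from the other control libraries on the second principal component (-29.99, against 14.45 and 18.79), and values without it are given for the junction genes whose call it changed. Of 17 markers of retinal pigment epithelium, RPE65 and TTR had 0 counts in every library, TYR 0 to 2 and DCT 0 to 4. In CPM, counts scaled to library size, KRT8 (1152 ± 74.3 in the controls), OTX2 (63.6 ± 10.9) and MITF (42.2 ± 3.92) were present (SD, n = 3). KRT18, EZR and TJP1 of this list were at control means of 781.8, 857.6 and 76.7 CPM. Low were RDH5, RLBP1, PMEL, LRAT, TYRP1 and SERPINF1, at control means of 6.53, 3.81, 2.64, 2.34, 1.40 and 1.24 CPM. None of the 13 tested markers of this list passed by edgeR, against 3.83% of all genes tested. LRAT alone had an unadjusted p under 0.05 (log2 fold change -0.82, edgeR p 0.0251), against 17.5% of all genes. BEST1 stood at 357.6 CPM in PDZK1 replicate 1, against 4.32 to 5.60 CPM in the other libraries. E-cadherin (CDH1) had between 0 and 10 counts per library and N-cadherin (CDH2) between 305.6 and 348.8 CPM. The endothelial cadherin CDH5 and the keratinocyte keratins KRT5 and KRT14 were at 0 throughout. Summed over their lists, endothelial markers lay at 5.60 to 6.01 CPM in the controls and 5.20 to 5.37 CPM in the PDZK1 libraries. Keratinocyte and columnar epithelium markers lay at 3.44 to 3.76 and 2.02 to 3.59 CPM. The claudin gene CLDN4 made up most of this sum, at 2.64 ± 0.411 and 1.91 ± 0.788 CPM. It alone of these 10 markers was tested, and it did not pass by edgeR (adjusted p 0.466), against 3.83% of all genes tested. Of 3 endothelial markers tested, 0 passed by edgeR. At an unadjusted p under 0.05, against 17.5% of all genes, ESAM was higher (log2 fold change 1.43, p 0.00615) and KDR lower (-0.47, p 0.00834). KDR, most of the endothelial sum, was at 4.91 ± 0.173 and 3.55 ± 0.171 CPM. Fibroblast and mesenchymal markers, with N-cadherin among them, were abundant at 5383 to 6118 and 5504 to 5758 CPM, and VIM, vimentin, made up most of this sum. Of the 7 tested, 0 passed edgeR at an adjusted p under 0.05, against 3.83% of all genes tested. At an unadjusted p under 0.05, 4 were higher with PDZK1 and 0 were lower, against 8.13% and 9.37% of all genes tested. The 4 were FN1 (log2 fold change 0.50), COL1A1 (0.53), PDGFRB (0.20) and CDH2 (0.13). Their part in the results below was not tested.

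The 9 genes spanned a wide range of levels. Levels between genes were compared in FPKM, which scale for transcript length, as the mean of all 6 libraries. MARVELD1, a MARVEL-domain membrane protein gene, was highest at 38.1 FPKM (range 34.8 to 41.6), followed by CLDN12, an atypical claudin, at 33.7 (31.2 to 35.4). Transcript levels do not show whether the MARVELD1 protein lies in the junction. MARVELD2 and MARVELD3, MARVEL-domain genes outside the 9, were at 1.24 and 0.0941 FPKM. F11R, which encodes junctional adhesion molecule A, was at 14.9 (13.2 to 15.6) and TJP1, which encodes ZO-1, at 10.02 (9.63 to 10.6). CLDN1, a sealing claudin, followed at 9.14 (7.71 to 10.8), CLDN11, known as a strand component in myelin and testis, at 5.94 (5.20 to 6.76), and OCLN, occludin, at 3.56 (3.34 to 3.86). CGN, cingulin, was at 0.658 (0.391 to 0.835) and TJP3, which encodes ZO-3, at 0.0254 (0 to 0.0468). The ranges of neighbours in this order overlapped for MARVELD1 and CLDN12 and for TJP1 and CLDN1, and not for the other 6 neighbouring pairs. Set among all Ensembl entries by mean FPKM, MARVELD1 and CLDN12 stood at percentiles 90.8 and 89.7, TJP1 at 70.0, OCLN at 53.4 and TJP3 at 27.9.

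**Figure D1:**
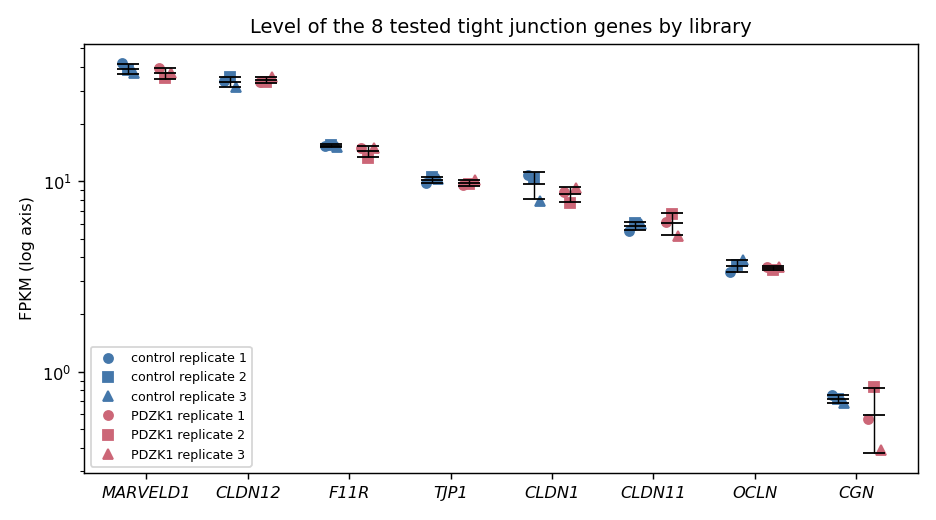
FPKM on a log axis for the 8 tight junction genes that could be tested, with 1 point per library, the group mean as a bar and the SD as whiskers (n = 3 per group). MARVELD1 and CLDN12 lie at 31.2 to 41.6 FPKM, CGN below 1 FPKM, and the groups sit side by side for each gene; TJP3, at 0 in 2 libraries, is not drawn.

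TJP3 was at the limit of detection. It had 5, 5 and 0 counts in control replicates 1 to 3 and 4, 4 and 0 counts in PDZK1 replicates 1 to 3, where 3 counts correspond to 0.0915 to 0.109 CPM. It did not pass the filter on low counts and no difference could be shown at this depth. Its paralog TJP1 had 2147 to 2453 counts in the same libraries.

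The sequence before the transcription start is shown for 3 of these genes because they stand near the top, the middle and the bottom of the tested level order: MARVELD1, TJP1 (the most upstream of its RefSeq starts) and CGN. Each run is the longest stretch outside any GENCODE release 29 exon within the 250 bases before the RefSeq start (GRCh38), 5′ to 3′ on the strand of the gene. The MARVELD1 and CGN runs lie inside the GENCODE gene spans, downstream of their annotated starts, and the TJP1 run lies upstream of its span. Capitals mark the E-box CAGGTG or its reverse complement CACCTG, the form bound by repressors of the Snail and ZEB families, for which OCLN and claudin genes are known targets.
MARVELD1, chr10:97713562-97713723, plus strand: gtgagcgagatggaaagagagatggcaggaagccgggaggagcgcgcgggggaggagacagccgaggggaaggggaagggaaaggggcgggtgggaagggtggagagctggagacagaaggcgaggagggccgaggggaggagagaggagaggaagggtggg
TJP1, chr15:29969050-29969299, minus strand: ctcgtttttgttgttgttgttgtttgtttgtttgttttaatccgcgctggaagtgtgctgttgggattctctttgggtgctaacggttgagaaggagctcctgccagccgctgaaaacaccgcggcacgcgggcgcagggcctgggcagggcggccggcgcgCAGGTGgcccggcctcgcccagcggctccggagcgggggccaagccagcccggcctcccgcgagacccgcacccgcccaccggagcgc
CGN, chr1:151511137-151511386, plus strand: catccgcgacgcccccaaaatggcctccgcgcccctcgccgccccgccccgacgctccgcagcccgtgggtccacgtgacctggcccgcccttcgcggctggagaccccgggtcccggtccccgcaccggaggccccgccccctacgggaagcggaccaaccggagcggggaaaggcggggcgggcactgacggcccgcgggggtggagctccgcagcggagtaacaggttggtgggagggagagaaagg
The CGN run held 32 CpG dinucleotides in 250 bases, the TJP1 run 26 in 250 and the MARVELD1 run 9 in 162. In the full 250-base windows the counts were 32, 26 and 15, against a median of 11 over all windows. This is the reverse of the level order in these 3 chosen windows, but the order did not extend to others. The windows of TJP3, the lowest of the 9 genes, held 12 and 20, and the other TJP1 windows 27, 19 and 2. A relation of CpG count to level was not tested. RefSeq windows were found for 8 of the 9 genes, 14 windows in all, and 4 of these 14 windows, belonging to TJP1, OCLN and TJP3, held at least 1 E-box on either strand. Of all 35116 windows of the same length, 17.5% held one. For TJP1 only the most upstream window, the one shown, held an E-box, and its other windows held 0. A match describes letters only, and the windows of 1 gene can overlap.

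No difference between the groups in a tight junction gene passed the test. Of the 8 genes tested, 0 passed the edgeR threshold of an adjusted p under 0.05, and 0 had an unadjusted p under 0.05. DESeq2 and limma-voom also called 0. Over all 13645 genes tested, 3.83% passed the adjusted threshold and 17.5% had an unadjusted p under 0.05. The estimates were lower in the PDZK1 libraries for 6 genes and higher for 2, with a median log2 fold change of -0.065 against -0.00025 over all genes tested. The median size of the difference was 0.065 log2 units, against 0.085 over all genes. The 95% interval lay within a 1.5-fold change in either direction for 7 of the 8 genes, the exception being CGN, against 78.4% of all genes tested. Because these are bulk libraries, fewer cells with a transcript and less of it per cell cannot be told apart.

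**Figure D2:**
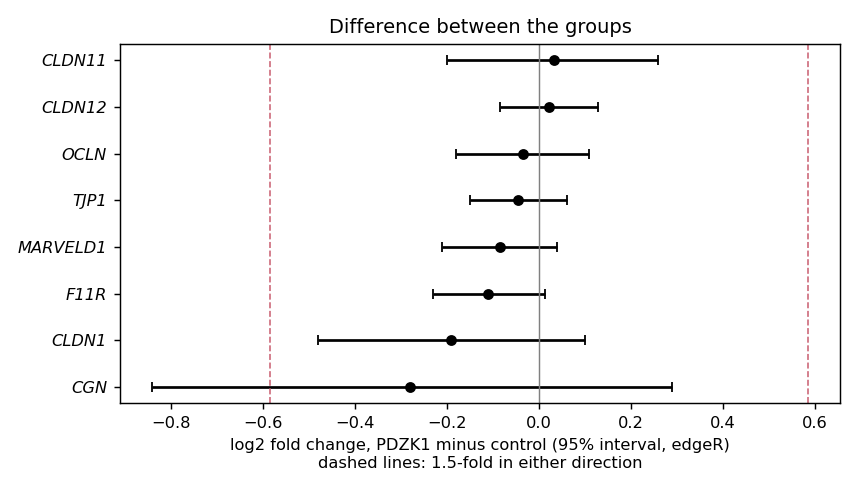
Log2 fold change of each tested tight junction gene, PDZK1 minus control, with its 95% interval from the edgeR fit (n = 3 per group) and dashed lines at a 1.5-fold change. Each interval includes 0, and that of CGN, from -0.84 to 0.29, is the only one of the 8 to cross a dashed line.

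Among the claudins, CLDN1 (ENSG00000163347, chromosome 3, 190305701 to 190322475, minus strand, GRCh38) was at 40.5, 39.1 and 29.8 CPM in control replicates 1 to 3 and at 32.8, 28.9 and 34.3 CPM in PDZK1 replicates 1 to 3. Control replicate 3 lay within the range of the PDZK1 libraries, and the other control libraries lay above them. The log2 fold change was -0.19 (adjusted p 0.493 by edgeR, SE 0.12, 95% interval -0.48 to 0.10). Without control replicate 3 it was -0.31 with an adjusted p of 0.035, and without control replicate 1 it was -0.11 (0.757). CLDN1 was past the threshold only in the fit without control replicate 3, 1 of 17 alternatives.

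CLDN12 (ENSG00000157224, chromosome 7, 90383721 to 90513402, plus strand) was at 128.1, 135.3 and 119.8 CPM in the control libraries and at 127.1, 127.7 and 134.5 CPM in the PDZK1 libraries. The PDZK1 values lay inside the control range. For the groups as a whole the difference was 0.022 on the log2 scale (SE 0.048, 95% interval -0.084 to 0.13, adjusted p 0.86), an SE as small as that of TJP1 and smaller than those of the other tested genes. The annotated span overlaps GTPBP10 and CDK14 on the same strand, so some reads could belong to them.

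CLDN11 (ENSG00000013297, chromosome 3, 170418865 to 170454733, plus strand) was at 16.6, 18.2 and 18.1 CPM in the control libraries and at 18.3, 20.3 and 15.5 CPM in the PDZK1 libraries. The PDZK1 group held both its highest and its lowest library. On the log2 scale the PDZK1 mean differed by 0.033 (SE 0.10, 95% interval -0.20 to 0.26, adjusted p 0.91). Its span overlaps 3 annotated genes on the same strand, 1 of them protein-coding.

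Among the other membrane proteins, OCLN (ENSG00000197822, chromosome 5, 69492292 to 69558104, plus strand) was at 22.4, 24.2 and 25.1 CPM in the control libraries and at 23.5, 22.7 and 23.9 CPM in the PDZK1 libraries. The PDZK1 values lay inside the control range (log2 fold change -0.034, SE 0.066, 95% interval -0.18 to 0.11, adjusted p 0.848). The annotation holds 1 numbered pseudogene of OCLN, so its reads can be shared. MARVELD1 (ENSG00000155254, chromosome 10, 97713173 to 97718152, plus strand) was at 145.4, 134.4 and 130.8 CPM in the control libraries and at 137.8, 121.3 and 128.2 CPM in the PDZK1 libraries. The groups overlapped, with PDZK1 replicate 1 above control replicates 2 and 3 (log2 fold change -0.085, SE 0.055, 95% interval -0.21 to 0.039, adjusted p 0.482).

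F11R (ENSG00000158769, chromosome 1, 160995211 to 161021348, minus strand) was at 77.8, 79.1 and 76.9 CPM in the control libraries and at 75.2, 66.4 and 75.1 CPM in the PDZK1 libraries. Every PDZK1 library lay below every control library, the only one of the 8 tested genes whose groups did not overlap, against 23.9% of all genes tested. This was a log2 fold change of -0.11 (SE 0.055, 95% interval -0.23 to 0.014, unadjusted p 0.0768, adjusted p 0.352). Without PDZK1 replicate 2 it was -0.050 (adjusted p 0.655). Its span overlaps 1 annotated protein-coding gene on the same strand.

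On the cytoplasmic side, TJP1 (ENSG00000104067, chromosome 15, 29699367 to 29968865, minus strand) was at 73.5, 78.9 and 77.8 CPM in the control libraries and at 73.5, 72.4 and 77.3 CPM in the PDZK1 libraries. The groups overlapped (log2 fold change -0.044, SE 0.048, 95% interval -0.15 to 0.062, adjusted p 0.702). Opposite-strand genes overlap TJP1, OCLN and CGN in the annotation. CGN (ENSG00000143375, chromosome 1, 151510510 to 151538692, plus strand) was at 4.21, 4.01 and 3.81 CPM in the control libraries and at 3.12, 4.64 and 2.18 CPM in the PDZK1 libraries. PDZK1 replicate 2 was the highest of the 6 libraries and PDZK1 replicate 3 the lowest, at 152 and 69 counts. The estimate was a log2 fold change of -0.28 (SE 0.25, 95% interval -0.84 to 0.29, adjusted p 0.64), and it ran from -0.60 without PDZK1 replicate 2 (adjusted p 0.224) to -0.047 without PDZK1 replicate 3 (adjusted p 0.954). Its relative cingulin family member CGNL1, outside the 9 genes, was far more abundant, at 20.1 FPKM, and did not pass the threshold (159.7 ± 11.8 against 155.0 ± 4.34 CPM, log2 fold change -0.043, adjusted p 0.736).

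The genes differed in how far libraries of a group spread. In the control libraries the coefficient of variation of CPM was lowest for F11R (1.43%) and highest for CLDN1 (16.0%) among the tested genes. In the PDZK1 libraries it was lowest for OCLN (2.63%) and highest for CGN (37.5%), with CLDN11 next (13.2%). The ratio of the highest to the lowest library over all 6 was 1.09 for TJP1, 1.12 for OCLN and 1.13 for CLDN12, against 1.40 for CLDN1 and 2.13 for CGN. The gene-wise biological coefficient of variation in the edgeR fit stood at percentile 13.4 of all tested genes for CLDN12 and 88.0 for CGN. PDZK1 replicate 2 was the lowest library for TJP1, CLDN1, MARVELD1 and F11R and the highest for CLDN11 and CGN. Over the 6 libraries the profiles of TJP1 and OCLN (Pearson r 0.84) and of CLDN1 and MARVELD1 (0.76) were the most alike of the 28 pairs, and those of CLDN11 and F11R the least (-0.58), with all genes read from the same libraries.

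**Figure D3:**
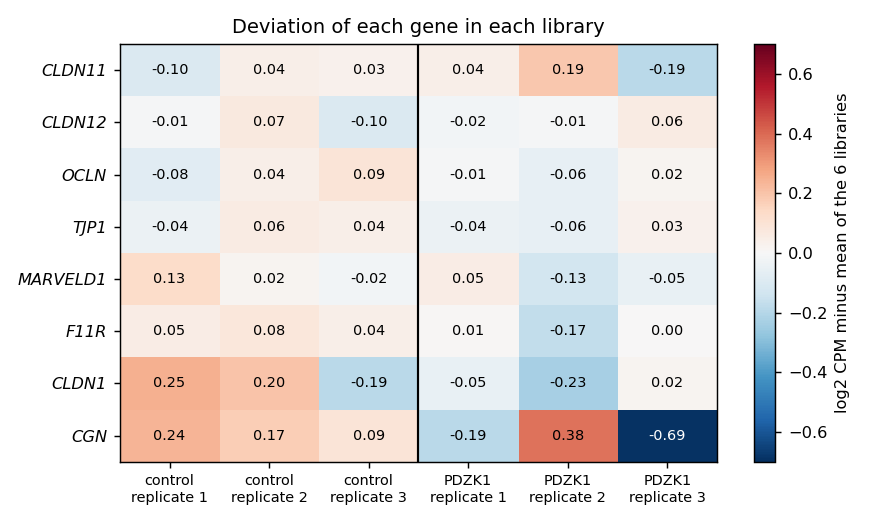
Log2 CPM of each tested tight junction gene in each library minus the mean of that gene over the 6 libraries, with red for higher and blue for lower and a line between the groups. CGN runs from 0.38 in PDZK1 replicate 2 to -0.69 in PDZK1 replicate 3, CLDN1 is at 0.25 and 0.20 in control replicates 1 and 2 and at -0.19 in control replicate 3, and TJP1 and CLDN12 stay within 0.10 of their mean.

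The patterns of the pair of genes with the largest estimates were compared with 11099 genes of at least 5 CPM. Most like CGN over the 6 libraries were RCE1 (Pearson r 0.993), TAF1B (0.990) and ERCC6L (0.986). Most like CLDN1 were RNF144B (0.999), ACO1 (0.997) and WNT2B (0.996). None of these 6 genes passed the threshold (adjusted p 0.533 to 0.809). These are the highest of 11099 values of r, each over 6 points, and describe these libraries only.

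**Figure D4:**
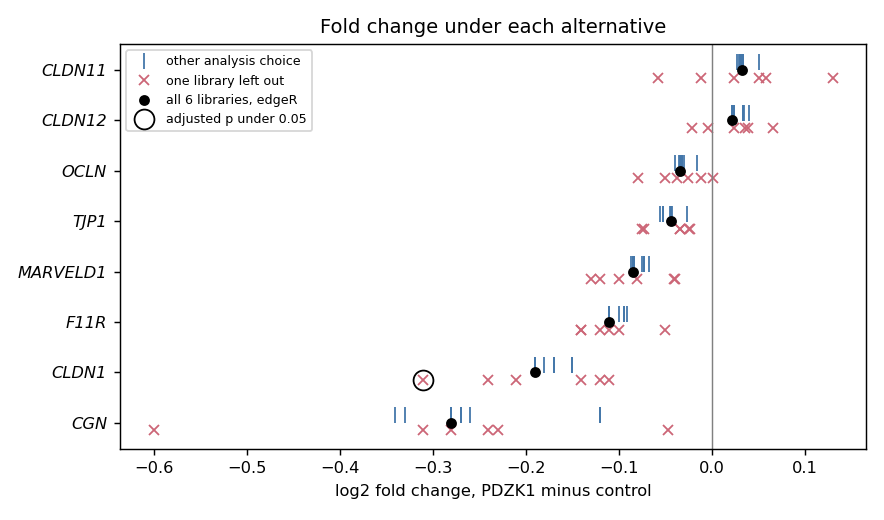
Log2 fold change of each tested tight junction gene with all 6 libraries (black point), with 1 library left out (crosses) and under the other analysis choices (ticks), with a circle where the adjusted p was under 0.05. The only circle is CLDN1 without control replicate 3 at -0.31, and the crosses of CGN spread from -0.60 to -0.047.

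Other genes of the junction were read from lists of the claudin family, membrane proteins, plaque and polarity proteins, and actomyosin genes with their regulators. These lists hold 81 further genes, of which 62 were tested. Of the 62, 0 rose and 2 fell past the threshold (PRKCZ and MYH10), against 1.41% and 2.41% of all genes tested, and the median of their log2 fold changes was -0.017, against -0.00025. At an unadjusted p under 0.05 there were 3 higher and 11 lower, against 8.13% and 9.37% of all genes tested.

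The claudin repertoire was narrow. Of the 21 other claudin genes listed, 5 had 0 counts in every library, CLDN19, a claudin of the retinal pigment epithelium, among them, and 6 could be tested. None of the 6 passed the threshold, and 0 had an unadjusted p under 0.05, against 3.83% and 17.5% of all genes tested. The most abundant was CLDN15, a cation-pore claudin, at 18.01 ± 1.40 CPM in the controls and 17.6 ± 1.37 CPM in the PDZK1 libraries (log2 fold change -0.036, 95% interval -0.23 to 0.16, adjusted p 0.883). CLDN23 was at 3.85 ± 0.514 and 4.46 ± 0.105 CPM (0.21, adjusted p 0.541) and CLDN4 at 2.64 ± 0.411 and 1.91 ± 0.788 CPM (-0.47, adjusted p 0.466). Counting CLDN12, CLDN1 and CLDN11 with CLDN15, the next claudin after these 4 by level, CLDN23, was at a mean of 1.77 FPKM. CLDN3, named after its values were seen, had 5, 11 and 24 counts in control replicates 1 to 3 and 0 in every PDZK1 library. Taking 3 counts per library as the floor, its control mean was at least 4.87-fold above the PDZK1 libraries. Without control replicate 3 this was at least 2.70-fold. Control replicates 1 to 3 were at 0.155, 0.356 and 0.870 CPM, against a floor of 0.0946 CPM. With all 6 libraries CLDN3 did not pass the filter on low counts. Without that filter its edgeR adjusted p was 0.0475, and it did not pass on log2(FPKM + 1) by limma. It also passed the filter and the threshold without control replicate 1 (edgeR adjusted p 0.0499), a fit that keeps control replicate 3, its highest library.

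Membrane proteins of the junction other than claudins numbered 14, of which 11 were tested. Of these, 0 passed the threshold by edgeR or DESeq2, against 3.83% of all genes by edgeR. At an unadjusted p under 0.05, 1 was higher and 4 were lower, against the same 8.13% and 9.37% over all genes. CXADR, the coxsackievirus and adenovirus receptor, was at 66.4 ± 4.35 CPM in the controls and 58.6 ± 2.09 CPM in the PDZK1 libraries (-0.18, 95% interval -0.31 to -0.049, adjusted p 0.138). It passed without control replicate 3 (-0.23, adjusted p 0.0226). JAM3 was at 37.4 ± 1.35 and 34.3 ± 0.487 CPM (-0.12, adjusted p 0.271) and BVES at 26.5 ± 1.53 and 28.2 ± 2.32 CPM (0.091, adjusted p 0.602). The largest estimates in this list, named after their values were seen, were of opposite sign. ESAM, an endothelial adhesion molecule, was low, at 0.194 to 0.495 CPM in the controls and 0.763 to 1.14 CPM in the PDZK1 libraries (1.43, 95% interval 0.51 to 2.35, adjusted p 0.0948). CRB2, a Crumbs polarity protein gene, was at 19.3 to 31.8 CPM in the controls and 8.09 to 15.5 CPM in the PDZK1 libraries (-1.06, 95% interval -1.90 to -0.22, adjusted p 0.193).

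Of 26 plaque and polarity genes, 25 were tested and PRKCZ alone passed by edgeR, where 3.83% of all genes tested passed. PRKCZ (ENSG00000067606, chromosome 1, 2050470 to 2185395), an atypical protein kinase C of the PAR polarity complex, fell from 18.2, 17.5 and 17.98 CPM in the control libraries to 13.2, 11.96 and 12.7 CPM in the PDZK1 libraries. All PDZK1 libraries lay below all control libraries (log2 fold change -0.50, SE 0.078, 95% interval -0.68 to -0.33, adjusted p 0.0081). It lies among genes that were also lower. Of the 40 nearest tested genes, 20 on each side, 39 were lower, with a median log2 fold change of -0.23. Of these, 10 were past the threshold. Over all 13645 genes tested, 6837 were lower and 2.41% passed as lower. The part of this neighbourhood in the fall of PRKCZ was not tested. The median over the neighbours of each of the 8 tested tight junction genes lay between -0.092 (TJP1) and 0.025 (MARVELD1). AMOT, angiomotin, passed only without control replicate 3 (0.39, adjusted p 0.0265), against 0.27 and 0.233 with all libraries. The other atypical kinase, PRKCI (70.8 ± 4.52 and 71.9 ± 4.44 CPM, adjusted p 0.89), did not pass.

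Of 20 genes of actomyosin and its regulators, all tested, MYH10 alone passed by edgeR, where 3.83% of all genes tested passed. MYH10 (ENSG00000133026, chromosome 17, 8474205 to 8630761), a non-muscle myosin II heavy chain, was at 130.5 ± 0.819 CPM in the controls and 118.2 ± 0.917 CPM in the PDZK1 libraries (log2 fold change -0.14, SE 0.031, adjusted p 0.0345). Leaving out 1 library ended the call in 5 of 6 cases (adjusted p 0.0945 to 0.169), the exception being control replicate 3 (0.0389). MYLK, myosin light chain kinase, named after its values were seen, was at 599.8 to 642.6 CPM in the controls and 517.5 to 571.6 CPM in the PDZK1 libraries (-0.19, edgeR adjusted p 0.0578). MYLK passed with DESeq2 (-0.19, adjusted p 0.00686) and without control replicate 3 (-0.22, 0.011).

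In the adherens junction, which lies below the tight junction and joins cadherins to actin, 13 of 14 listed genes were tested, and 2 rose and 2 fell by edgeR, against 1.41% and 2.41% of all genes tested. CDH2, at an adjusted p of 0.0681 (0.13), passed with DESeq2 (0.13, 0.0317), with library totals only (0.15, 0.0419) and without control replicate 3 (0.13, 0.0419). JUP (ENSG00000173801, chromosome 17, 41754604 to 41786931), plakoglobin, fell from 37.9, 40.5 and 38.3 CPM to 25.7, 26.4 and 25.4 CPM (log2 fold change -0.59, SE 0.055, adjusted p 0.000531). NECTIN3 (ENSG00000177707, chromosome 3), an adhesion receptor, rose from 61.4, 60.7 and 62.0 CPM to 74.0, 80.0 and 76.1 CPM (0.32, SE 0.046, adjusted p 0.00513). For both genes the groups were well apart, and both passed in the 17 alternatives that refit the data, as did PRKCZ. With a 1.5-fold limit added, JUP still passed, but NECTIN3 and PRKCZ did not. PLEKHA7 (ENSG00000166689, chromosome 11, 16777317 to 17014443), which links cadherin junctions to microtubules, rose from 57.7 ± 10.5 to 105.2 ± 6.42 CPM (0.87, SE 0.13, adjusted p 0.0276). Of its 40 nearest tested genes 33 were higher, 2 of them past the threshold, with a median log2 fold change of 0.12. Over all 13645 genes tested, 6808 were higher and 1.41% passed as higher. The part of these neighbours in the rise of PLEKHA7 was not tested. AFDN (ENSG00000130396, chromosome 6), afadin, which binds nectins and ZO-1, fell from 339.0 ± 1.06 to 300.4 ± 1.73 CPM (-0.17, SE 0.031, adjusted p 0.015). On the deposited FPKM its groups overlapped, at 42.6 to 56.5 in the controls and 38.4 to 49.2 in the PDZK1 libraries (-0.083 on log2(FPKM + 1), limma adjusted p 0.823). For PLEKHA7 and AFDN, leaving out 1 library ended the call in 5 of 6 cases each (adjusted p 0.0627 to 0.0988 and 0.0547 to 0.0953) and both passed without control replicate 3 (1.42e-05 and 0.00617). Of 12 gap junction genes 3 were tested and 0 passed by edgeR or DESeq2, against 3.83% of all genes by edgeR. An unadjusted p under 0.05 by edgeR was found for 1, against 17.5% of all genes.

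**Figure D5:**
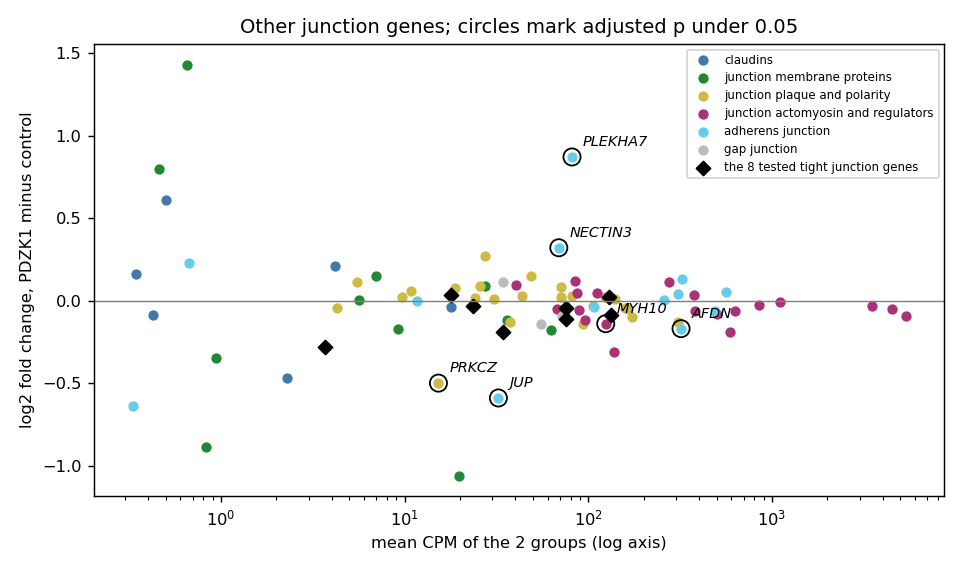
Log2 fold change, PDZK1 minus control, against the mean CPM of the groups on a log axis for tested genes of 6 junction lists (coloured points, 1 gene not shown) and the 8 tested tight junction genes (black diamonds), with circles and names for adjusted p under 0.05. The diamonds lie between -0.28 and 0.033, and the 6 circled genes are PLEKHA7, NECTIN3, AFDN, MYH10, PRKCZ and JUP.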

How the data were processed

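Human ARPE-19 cells were profiled by RNA sequencing in 6 libraries. The authors deposited estimated counts as whole numbers per gene, with no depth scaling, and FPKM, which the authors scaled by transcript length and mapped fragments. The submitters' processing notes name fastp 0.20.1, HISAT2 2.2.1 and GRCh38. The counting program and the strandedness are not given in the sources used here, but default StringTie locus names occur among the identifiers. Near-identical or overlapping genes can therefore share reads. In each table, 3 columns matching none of the samples were not used. The 853 assembled loci (0.519% to 0.536% of counts) were left out of the test.

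Counts were tested with edgeR 4.0.16 (R 4.3.3): filterByExpr (13645 genes kept), TMM scaling, robust quasi-likelihood test without covariates, Benjamini-Hochberg adjustment over all genes tested, threshold 0.05. CPM used TMM-scaled library sizes. Errors are SD over n = 3 libraries, and intervals are 95% model intervals. Count floors (3 counts) cover counting error only. The scripts were tested on simulated counts. Alternatives were DESeq2 1.42.0, limma-voom and limma (3.58.1) on log2(FPKM + 1) or log2(FPKM + 0.1) at a mean FPKM of at least 0.5 or unfiltered, RLE or total scaling, other filters, a replicate block, assembled loci kept, an added 1.5-fold limit and each library left out. Fold changes on log2 FPKM understate changes of low genes.

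The tight junction genes, the lists and the rule for naming genes were chosen with earlier results of these data known. The rule names the 9 genes, PDZK1, junction list genes past the threshold (up to 5 per list and direction), the 3 most abundant of the claudin and membrane lists, and the 3 genes most correlated with each of the 2 genes of largest estimate. Any other gene was picked on its values, and the neighbour counts were an addition made after seeing the data. Of the Ensembl identifiers, 20229 matched GENCODE release 29, whose GRCh38 coordinates (1-based) are given. Upstream sequences are RefSeq's (GRCh38.p14).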

Additional observations from a re-analysis of the deposited data

How the results depend on the processing

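The count of tight junction genes past the threshold stayed at 0 in all alternatives but one and ran from 0 to 1 when 1 library at a time was omitted, the 1 being CLDN1 without control replicate 3. The sign of 3 estimates near 0 changed in such fits, with OCLN running from -0.079 to 0.0019, CLDN11 from -0.058 to 0.13 and CLDN12 from -0.021 to 0.066, none of them past the threshold, and the cause was not tested. In the 4 wider lists the count of 2 became 1 with limma-voom, with library totals only, in the 3 fits on log2 FPKM and with the replicate block, became 0 with the added 1.5-fold limit, became 3 with DESeq2 (MYLK added) and 3 without the filter (CLDN3 added), and ran from 1 to 5 when 1 library was omitted. The cause of the first 6 was not tested, and the stricter criterion accounts for the 0. Over all genes, 522 passed, against 793 with DESeq2, 184 on log2(FPKM + 1), 185 on log2(FPKM + 0.1), 185 on log2(FPKM + 1) without the filter, 163 with the replicate block, 171 with the added 1.5-fold limit and 181 to 875 when 1 library was omitted, the 875 being without control replicate 3. Across genes, libraries with the same number had residual correlations of -0.0462, -0.056 and -0.143, so the numbers were not taken as pairs. With the replicate block MYH10 (adjusted p 0.153), PLEKHA7 (0.113) and AFDN (0.107) were not past the threshold, and no call of a tight junction gene changed. AFDN also lost it in the 3 fits on log2 FPKM (0.823 to 0.844). MYH10 lost it there (0.154 to 0.201), with limma-voom (0.0525) and with library totals only (0.0572). Depth limits TJP3 and most claudins, which were too low to test.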
